A study of Homo sapiens with 17 samples.

Results

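The mitochondrial ribosomal protein genes were taken as the protein-coding genes whose symbol is MRPL or MRPS followed by digits. The annotation lists 78 such genes, and 77 of the 19141 genes in the count table were among them, with 48 named MRPL after the large subunit and 29 named MRPS after the small subunit. The remaining gene, MRPL53, was not analysed here. All 77 genes passed the filter on low counts in both fits described with the results. MRPS24, with 0 to 2 counts in every DMSO library, passed it only through toyocamycin libraries, where it is higher. It is kept in the counts, medians, spreads and correlations of members below and is no support for a rise.

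YB5 cells, which descend from the human colon cancer line SW48 and carry a methylated, silent CMV-driven GFP insert in every group, were exposed to DMSO or to 250 nM toyocamycin, an adenosine analog. The labels give 8 DMSO and 9 toyocamycin libraries of polyA RNA: 2 libraries per arm at 2 h, 1 DMSO and 2 toyocamycin libraries at 10 h, 1 per arm at 24 h and at 48 h, and 3 per arm at the last time point. That time is 72 h in the labels and a different hour in the study's text, and is called the last time point here. Replicate 2 of each arm at 2 and 10 h forms batch 2 in the labels, and the other 13 libraries form batch 1.

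Mitochondria translate a small set of membrane proteins of oxidative phosphorylation on their own ribosomes. The ribosomal RNAs come from the mitochondrial genome, whereas every protein of these ribosomes is encoded in the nucleus, made in the cytosol and imported. Some of the proteins have a counterpart in bacterial ribosomes, and others were gained in the mitochondrial lineage. The names do not always give the place of the protein: MRPS30 and MRPS18A sit in the large subunit, and MRPS36 is now regarded as a part of the 2-oxoglutarate dehydrogenase complex.

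Total counts per library ranged from 8735465 to 22121364. The lowest total was that of toyocamycin replicate 2 at 10 h, in which 6.55% of counts came from mitochondrially encoded genes, against 3.30% in replicate 1 at that time. Of 10 colon epithelial markers, CDX1 was at 0 in all DMSO libraries, and the summed level of the 10 was 6722 to 7530 CPM (counts scaled to the depth of the library) in DMSO at the last time point and 386 to 425 CPM with toyocamycin. Of the 8 that were tested, CDX2 (log2 fold change 0.61) and LGALS4, which was near 0 in DMSO, were called up at that time and 6 were called down, among them KRT8 (-3.97), KRT18 (-5.09) and KRT19 (-5.97). The 10 markers of blood, endothelial and stromal cells summed to 1.60 to 2.90 CPM in DMSO and 52.9 to 66.9 CPM with toyocamycin at that time, with CD3E, PECAM1 and COL3A1 at 0 in the DMSO libraries. The part of either shift in the values below was not tested. In bulk RNA, fewer cells of a kind and less RNA per cell cannot be told apart.

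The promoters of members that rose and of members that fell most at the last time point are shown to place the motifs counted further on. They are, for each direction, the leading named members with no annotated exon in the 250 bases before the RefSeq transcription start. The strand shown is that of the gene, 5′ to 3′, in GRCh38.p14, and the 4 windows are chr2:223957213-223957462 (plus strand), chr1:1407294-1407543 (minus), chr1:36464385-36464634 (minus) and chr6:43687792-43688041 (minus). Capitals mark exact matches, on either strand, to the ETS family motif (in MRPL20 and MRPS18A) and to the TATA box (in MRPS15), both spelled out with the motif counts. MRPL44 and MRPL20 rose, and MRPS15 and MRPS18A fell.
MRPL44: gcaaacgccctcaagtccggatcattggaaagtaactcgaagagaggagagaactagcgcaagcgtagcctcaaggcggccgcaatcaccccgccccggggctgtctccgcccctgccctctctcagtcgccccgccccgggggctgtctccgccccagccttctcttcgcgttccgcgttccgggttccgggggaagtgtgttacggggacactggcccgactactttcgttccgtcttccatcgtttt
MRPL20: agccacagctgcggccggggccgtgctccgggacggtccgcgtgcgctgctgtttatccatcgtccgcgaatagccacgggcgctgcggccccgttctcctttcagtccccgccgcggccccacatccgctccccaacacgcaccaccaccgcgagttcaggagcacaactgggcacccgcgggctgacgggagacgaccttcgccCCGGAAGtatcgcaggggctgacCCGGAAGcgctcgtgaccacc
MRPS15: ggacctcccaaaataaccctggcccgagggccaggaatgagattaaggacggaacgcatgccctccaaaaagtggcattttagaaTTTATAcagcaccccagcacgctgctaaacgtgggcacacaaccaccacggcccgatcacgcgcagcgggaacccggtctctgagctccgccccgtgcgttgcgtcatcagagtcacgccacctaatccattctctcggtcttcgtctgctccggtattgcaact
MRPS18A: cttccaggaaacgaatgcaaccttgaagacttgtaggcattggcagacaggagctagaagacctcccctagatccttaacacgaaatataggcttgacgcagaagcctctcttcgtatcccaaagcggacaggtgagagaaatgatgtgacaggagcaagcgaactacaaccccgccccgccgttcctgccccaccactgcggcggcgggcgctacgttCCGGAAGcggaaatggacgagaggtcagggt

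After 2 h, a single member passed the threshold, which was a Benjamini-Hochberg adjusted p under 0.1 by the quasi-likelihood test of edgeR, adjusted over all genes tested. MRPS25, a mitochondria-specific protein of the small subunit, measured 31.8 and 35.3 CPM in DMSO and 45.2 and 55.1 CPM with toyocamycin, so its groups did not overlap. Its log2 fold change was 0.58 ± 0.17 (SE), with an adjusted p of 0.0589 in edgeR. Among all 14491 genes tested at 2 h, 0.518% were called up and 8.42% were called down. No member was called down, and the members' log2 fold changes had a median of 0.12 and an SD of 0.28, against 0.02 and 0.82 over all genes tested. The spread of genes at a matched level was not computed, so the smaller SD cannot be read as particular to the members. The call of MRPS25 was lost without DMSO replicate 1 (adjusted p = 0.211) and without toyocamycin replicate 2 (adjusted p = 0.362), both from edgeR.

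The replicate number is also the batch at 2 h, and libraries with the same number deviated together. With the replicate as a block, in the libraries of 2 h alone, 10 members were called up and 1 was called down of 76 tested, beside 8.72% up and 18.7% down over the 11848 genes of that fit. The 10 were MRPL4, MRPL16, MRPL34, MRPL43, MRPL46, MRPL51, MRPS18C, MRPS21, MRPS25 and MRPS28, and their names are given after their values were seen. MRPL50, the member that fell, had a log2 fold change of -0.56 (adjusted p = 0.00118 in edgeR). It measured 18.8 and 24.0 CPM in DMSO and 12.8 and 16.5 CPM with toyocamycin. Each toyocamycin library was also set against the mean of both DMSO libraries of 2 h. For that of batch 1 the median log2 difference was 0.0048 for MRPL and 0.0239 for MRPS genes. For that of batch 2 it was 0.204 and 0.164. Since the DMSO mean spans both batches, these values hold batch and treatment together.

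After 10 h, 13 members were called up and 13 were called down, beside 20.4% up and 24.4% down of the 16521 genes tested. This fit used all 17 libraries, and its DMSO arm at 10 h is 1 library of batch 2. That library has no replicate here and is assumed to vary like the libraries of the other groups, and the standard errors and adjusted p-values at 10 h rest on this. A further column of the table, by its name replicate 1 of this arm, was tied to no labelled sample and did not enter. The members had a median log2 fold change of -0.11 and all genes 0.42. Without toyocamycin replicate 1 the counts were 12 up and 24 down, and without replicate 2 they were 20 up and 14 down. Batch as a term gave 16 up and 18 down. Scaling by library size alone gave 4 up and 36 down, and scaling on the mitochondrially encoded genes gave 0 up and 31 down (16 and 11 by DESeq2's size factors). The shares of all genes moved with them, to 11.3% up and 34.4% down by library size, 3.04% and 32.5% on the mitochondrially encoded genes, and 25.8% and 20.4% by DESeq2's size factors.

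The largest falls at 10 h were of proteins from both subunits. MRPS31, a mitochondria-specific protein of the small subunit, measured 15.2 CPM in DMSO and 4.64 and 6.08 CPM with toyocamycin (log2 fold change -1.52 ± 0.29, adjusted p = 0.000669). MRPL27, whose bacterial counterpart reaches the peptidyl transferase centre, measured 27.3 CPM in DMSO and 10.4 and 8.95 CPM with toyocamycin (-1.49 ± 0.22, adjusted p = 9.76e-05). MRPS18A measured 23.0 CPM in DMSO and 10.1 and 8.18 CPM with toyocamycin (-1.32 ± 0.24, adjusted p = 0.000583). In each of these genes both toyocamycin libraries lay below the DMSO library. The next were MRPS17 (-1.25 ± 0.31), the mitochondria-specific MRPL39 (-1.23 ± 0.27), MRPS9 (-0.86 ± 0.23), MRPL17 (-0.81 ± 0.26) and MRPL58 (-0.80 ± 0.27), a protein of the large subunit with peptidyl-tRNA hydrolase activity. Their adjusted p-values in edgeR lay between 0.00234 and 0.0292. Leaving out a toyocamycin library moved MRPS17 to -1.90 without replicate 1 and, without replicate 2, MRPL17 to -0.48 and MRPL58 to -0.44, where the call of MRPL58 was lost (adjusted p = 0.141 in edgeR).

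The largest rises at 10 h were led by MRPL23, a conserved protein at the exit of the peptide tunnel. It measured 9.74 CPM in DMSO and 37.6 and 19.0 CPM with toyocamycin (log2 fold change 1.55 ± 0.35, adjusted p = 0.00267). MRPS30 measured 47.1 CPM in DMSO and 113.9 and 91.1 CPM with toyocamycin (1.12 ± 0.23, adjusted p = 0.00153). MRPL28 (1.06 ± 0.28), MRPL48 (1.06 ± 0.25), MRPL11 (0.92 ± 0.24), MRPL54 (0.78 ± 0.29), MRPS34 (0.73 ± 0.28) and MRPS21 (0.70 ± 0.21) followed, with adjusted p-values between 0.0033 and 0.0503 in edgeR. Without toyocamycin replicate 1, MRPL23 was at 0.96, and the calls of MRPL54 (0.38, adjusted p = 0.241) and MRPS34 (0.35, adjusted p = 0.205 in edgeR) were lost. Of these 8 genes, MRPL28, MRPL48, MRPL11, MRPL54, MRPS34 and MRPS21 turned negative when libraries were scaled on the mitochondrially encoded genes. On that scaling MRPL23 was at 0.50 and MRPS30 at 0.017, and neither was past the threshold. By library size alone MRPL11 (0.48), MRPL54 (0.29), MRPS34 (0.24) and MRPS21 (0.23) were no longer past it.

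The rises at 10 h were read against a DMSO library that was low for many members. In CPM of the library total, 28 of the 77 members were lower at 10 h in DMSO than in all 7 other DMSO libraries. A further 4 were higher and 45 were within the range of those 7. The same count over all genes was not made, so these numbers cannot be read as particular to the members. Most of the 7 other DMSO libraries are of the other batch, and the part of batch in these counts was not tested. The 8 named falls were below all 7 of those other DMSO libraries in both toyocamycin libraries. Among the 8 named rises, the same held in the opposite direction for MRPS30, at 95.8 and 94.3 CPM of the library total against 51.6 to 75 CPM. The other 7 overlapped that range. MRPL28, for example, was at 58.1 CPM in DMSO at 10 h and at 94.7 and 78.5 CPM with toyocamycin. In the other DMSO libraries it was at 83.3 to 126 CPM. Scaling to the library total itself lowers the members at 10 h. By library size alone their median log2 fold change was -0.57, against -0.11 in the main fit. The check thus favours falls over rises. The DMSO library of 10 h does not enter it, so the positions of the falls and of MRPS30 do not rest on that library. For the 7 rises that overlapped the range, a rise and a low DMSO library at 10 h were not told apart.

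At 24 and 48 h there is 1 library per arm and no test, so a fitted change of at least 2-fold was counted. After 24 h, 23 members were higher and 10 were lower by that measure, beside 29.7% higher and 27.8% lower over all 14491 genes. After 48 h, 23 were higher and 18 lower, beside 38.1% and 29.9%. Scaling by library size alone gave 6 higher and 29 lower at 24 h and 10 higher and 28 lower at 48 h. On the mitochondrially encoded genes the counts were 2 and 62 at 24 h and 1 and 52 at 48 h, and DESeq2's size factors gave 24 and 8, then 28 and 11. Over all genes the shares were 16.3% higher and 48.3% lower at 24 h and 30.7% and 40% at 48 h by library size. On the mitochondrially encoded genes they were 8.98% and 71.1%, then 20.1% and 59.1%, and by DESeq2's size factors 32% and 24.9%, then 41.3% and 25.8%. MRPS24 is counted as higher at both times on 1 and 10 counts with toyocamycin and 0 in DMSO.

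MRPS30 was the most changed named member at 24 h. It measured 45.0 CPM in DMSO and 441.1 CPM with toyocamycin at 24 h, and 59.2 and 343 CPM at 48 h. The fitted log2 fold changes of MRPS30 were 3.29 and 2.54. MRPL44, a mitochondria-specific protein related to ribonuclease III, measured 30.5 CPM in DMSO and 171.2 CPM with toyocamycin at 24 h, and 39.2 and 171.5 CPM at 48 h. MRPL10, which anchors the stalk of the large subunit, had log2 fold changes of 1.75 and 2.24 at these times, MRPS23 2.11 and 1.97, MRPL55 2.34 and 1.95, MRPL20 0.95 and 1.24, and MRPS33 0.68 and 1.90. Among genes that were lowest later on, MRPL9 was at -1.07 and -1.74, MRPL43 at -1.19 and -1.55, MRPS18A at -1.15 and -1.12, MRPL28 at -0.34 and -1.88, and MRPS27 at -0.68 and -1.45.

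**Figure D1:**
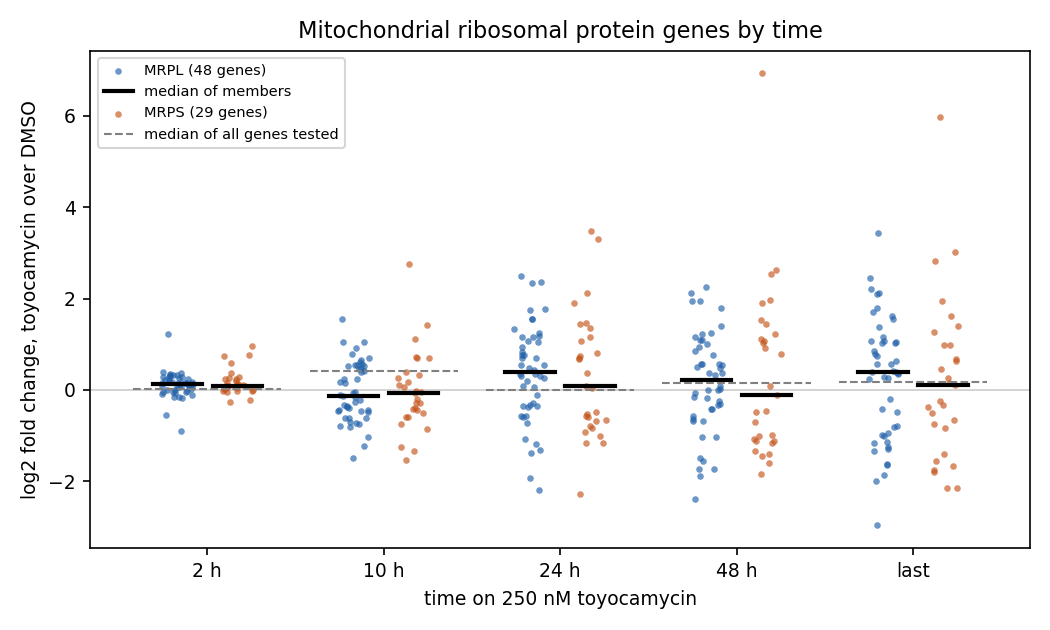
Fitted log2 fold change of toyocamycin over DMSO (vertical axis) for each of 48 MRPL (blue) and 29 MRPS (orange) genes at each time (horizontal axis); black bars are the members' medians and dashed lines the medians of all genes tested. The points spread from an SD of 0.28 at 2 h to 1.52 at the last time point around medians that stay between -0.12 and 0.40; the points above 5 are MRPS24, which has 0 to 2 counts in every DMSO library.

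At the last time point, 40 members were called up and 29 were called down, beside 47% up and 41.9% down of the 14491 genes tested. The remaining 8 passed in neither direction. In 67 of the 69 genes called, the 3 toyocamycin libraries lay beyond the 3 DMSO libraries. The same share among all genes called was not counted, so this number is not particular to the members. The median log2 fold change was 0.36 for the members and 0.18 for all genes, and the SD was 1.52 against 3.31, again without genes of a matched level. Scaling by library size alone gave 24 up and 38 down, and scaling on the mitochondrially encoded genes gave 9 up and 38 down (45 and 24 by DESeq2's size factors). Of all genes, 39% were then up and 50.4% down by library size, 29% and 50.8% on the mitochondrially encoded genes, and 51.4% and 37.1% by DESeq2's size factors.

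The risers included proteins of both subunits, with and without a bacterial counterpart. MRPS33, a mitochondria-specific protein of the small subunit (chr7:141002610-141015228, minus strand), measured 11.2, 14.1 and 15.7 CPM in DMSO and 111, 90.9 and 88.3 CPM with toyocamycin (log2 fold change 2.82 ± 0.23, adjusted p = 1.03e-08). MRPL10 (chr17:47823272-47831541, minus strand) measured 69.1, 67.0 and 64.5 CPM in DMSO and 353.8, 376.8 and 360.1 CPM with toyocamycin (2.44 ± 0.12, adjusted p = 2.85e-11). MRPL44 (chr2:223957463-223967714, plus strand) measured 39.4, 42.8 and 43.7 CPM in DMSO and 208.9, 202.5 and 167.8 CPM with toyocamycin (2.20 ± 0.13, adjusted p = 3e-10). The arms were far apart in each of these genes, and the spread within an arm was small beside the gap. MRPL20, a conserved protein bound to the large ribosomal RNA (chr1:1401909-1407293, minus strand), measured 50.1, 47.1 and 47.4 CPM in DMSO and 202.3, 208.2 and 210.2 CPM with toyocamycin (2.10 ± 0.13, adjusted p = 4.58e-10). MRPS23 (chr17:57834781-57850056, minus strand) measured 60.9, 68.1 and 77.7 CPM in DMSO and 299.9, 250.2 and 241.8 CPM with toyocamycin (1.94 ± 0.14, adjusted p = 2.75e-09). MRPL55 (1.80 ± 0.15), MRPL36 (1.70 ± 0.14) and MRPS21 (1.63 ± 0.12) completed the 8 largest rises, with adjusted p-values in edgeR between 3.43e-09 and 1.24e-08. Scaled on the mitochondrially encoded genes, MRPL55 was at 0.70, MRPL36 at 0.60 and MRPS21 at 0.56, and their calls were lost.

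The largest fall was that of MRPL28, a conserved protein of the large subunit (chr16:366969-371289, minus strand). It measured 112.4, 109 and 92.1 CPM in DMSO and 12.2, 15.0 and 13.1 CPM with toyocamycin (log2 fold change -2.96 ± 0.16, adjusted p = 1.37e-10). MRPS27, a pentatricopeptide repeat protein of the small subunit (chr5:72214953-72321717, minus strand), measured 104.8, 106.8 and 118.7 CPM in DMSO and 22.8, 22.9 and 28.5 CPM with toyocamycin (-2.15 ± 0.15, adjusted p = 1.96e-09). Both genes fell in all 3 toyocamycin libraries, below every DMSO library. MRPS36 (chr5:69217760-69230158, plus strand) measured 11.1, 12.0 and 12.6 CPM in DMSO and 2.66, 3.47 and 2.02 CPM with toyocamycin (-2.14 ± 0.25, adjusted p = 1.09e-06). MRPL9 (chr1:151759647-151763496, minus strand) measured 25.9, 29.4 and 30.1 CPM in DMSO and 7.98, 7.03 and 6.40 CPM with toyocamycin (-2.0 ± 0.16, adjusted p = 1.35e-08), and 43.7% of the exon bases of its main transcript lie in another gene as well. MRPL43 (-1.85 ± 0.19), MRPS15 (-1.80 ± 0.12), MRPS18A (-1.75 ± 0.17) and MRPS26 (-1.66 ± 0.18) followed, with adjusted p-values in edgeR between 1.7e-09 and 2.74e-07.

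**Figure D2:**
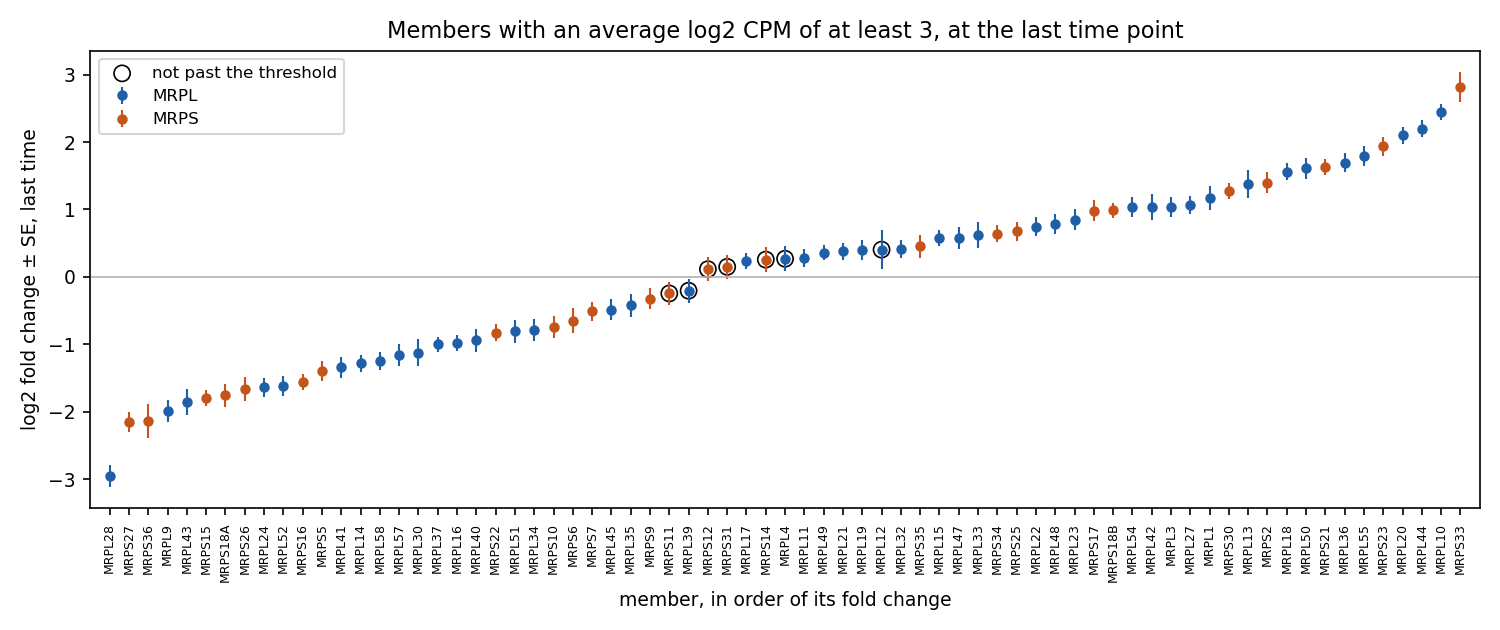
Log2 fold change at the last time point with its standard error (vertical axis) for the members with an average log2 CPM of at least 3, in order of their fold change (horizontal axis; MRPL blue, MRPS orange; ringed points are not past the threshold). The order runs from MRPL28 at -2.96 to MRPS33 at 2.82 with both subunits along its whole length.

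Members that lie near each other in the assembled ribosome took different values. At the stalk of the large subunit, MRPL10 rose, MRPL11 had a log2 fold change of 0.28 ± 0.13 (adjusted p = 0.0604 in edgeR, called up) and MRPL12 had 0.40 ± 0.29 (adjusted p = 0.195, not called). MRPL11 measured 58.1, 59.6 and 63.6 CPM in DMSO and 79.5, 68.4 and 72.1 CPM with toyocamycin, and its call turned under library-size scaling to -0.32 (adjusted p = 0.0367 in edgeR) and on the mitochondrially encoded genes to -0.78. The call of MRPL11 was also lost without DMSO replicate 1 (adjusted p = 0.149), DMSO replicate 2 (0.131) or toyocamycin replicate 1 (0.178), all in edgeR, and MRPL12 was called up without DMSO replicate 1 (0.77, adjusted p = 0.0192). With DESeq2's size factors MRPL12 was called up as well (0.72, adjusted p = 0.0287 in edgeR). It was negative and not called by library size alone (-0.20) and on the mitochondrially encoded genes (-0.77). MRPL12 shares 69.5% of its exon bases with another gene and ranged from 5.78 to 13.1 CPM in DMSO. At the exit of the peptide tunnel, MRPL23 was at 0.85 ± 0.16 and MRPL24 at -1.64 ± 0.14. MRPL45, which holds the ribosome at the inner membrane, was at -0.48 ± 0.15 (adjusted p = 0.00724 in edgeR). These last 2 genes and MRPL23 were picked for their place in the ribosome after their values were seen.

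At the decoding centre, MRPS12 had a log2 fold change of 0.11 ± 0.18 (adjusted p = 0.562 in edgeR). It measured 87.3, 90.3 and 72.3 CPM in DMSO and 82.4, 93.4 and 94.6 CPM with toyocamycin, so its groups overlapped. Other scalings called MRPS12 in either direction. It was called up with DESeq2's size factors (0.43, adjusted p = 0.0381 in edgeR). By library size alone (-0.49, adjusted p = 0.022) and on the mitochondrially encoded genes (-0.99, adjusted p = 0.0362 in edgeR) it was called down. The paralogs of MRPS18 took different values: MRPS18A fell by 1.75 on the log2 scale, MRPS18B rose by 0.98 ± 0.11 (adjusted p = 7.35e-07) and turned to -0.08 on the mitochondrially encoded genes, and MRPS18C was at -0.38 ± 0.38 (adjusted p = 0.361), or -0.69 (adjusted p = 0.0712 in edgeR) without DMSO replicate 3. MRPS18C was called down by library size alone (-0.97, adjusted p = 0.0256 in edgeR). It was also called down on the mitochondrially encoded genes (-1.515, adjusted p = 0.00542 in edgeR). MRPS18A shares 60.6% and MRPS18C 83.6% of their exon bases with a gene on the other strand, RSPH9 and ABRAXAS1. MRPL3, near the peptidyl transferase centre, measured 76.0, 80.1 and 106 CPM in DMSO and 193, 177 and 169 CPM with toyocamycin (1.04 ± 0.15, adjusted p = 8.19e-06 in edgeR). MRPL58 was at -1.25 ± 0.13 (adjusted p = 3.42e-07) and MRPS30 at 1.28 ± 0.12 (adjusted p = 8.81e-08). On the mitochondrially encoded genes MRPL3 was at 0.0020 and MRPS30 at 0.19, and neither was called.

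The effect at the last time point minus that at 2 h was higher for 30 members and lower for 28, beside 38% and 38.1% of all genes tested. By library size alone these counts were 20 and 35, on the mitochondrially encoded genes 5 and 31, and by DESeq2's size factors 39 and 25. The shares of all genes were 31.2% and 45.7%, 19.4% and 40.5%, and 42% and 34.5% in the same order. The comparisons at 24 h, 48 h and the last time point gave 17 members that were past their threshold upwards at each, among them MRPL10, MRPL36, MRPL44, MRPL55, MRPS23, MRPS30 and MRPS34, beside 23.2% of all genes. Those past it downwards at each were 6, beside 18.2% of all genes: MRPL9, MRPL24, MRPL40, MRPL43, MRPS7 and MRPS18A. MRPL40 had its lowest value at 24 h, a log2 fold change of -2.18, and was at -0.94 ± 0.17 at the last time point. MRPL40 and MRPS7 are named after their values were seen.

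The members called in opposite directions at 10 h and at the last time point numbered 7, beside 14.3% of all genes tested at both times, and are named after their values were seen. MRPL17, MRPL18, MRPL27 and MRPS17 were called down and then up. MRPL27 went from -1.49 ± 0.22 at 10 h to -1.32 at 24 h, -0.15 at 48 h and 1.07 ± 0.13 at the last time point. MRPL18, which went from -0.71 ± 0.23 to 1.56 ± 0.12, measured 63.3, 59.4 and 60.3 CPM in DMSO and 202.5, 180.8 and 156.1 CPM with toyocamycin at the last time point. MRPL24, MRPL28 and MRPS15 were called up and then down, MRPL28 from 1.06 ± 0.28 to -2.96 ± 0.16. At 10 h, the 4 that went down first lay below all 7 other DMSO libraries, while the 3 that went up first overlapped them. These positions are in CPM of the library total, a scale that favours falls at 10 h.

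**Figure D3:**
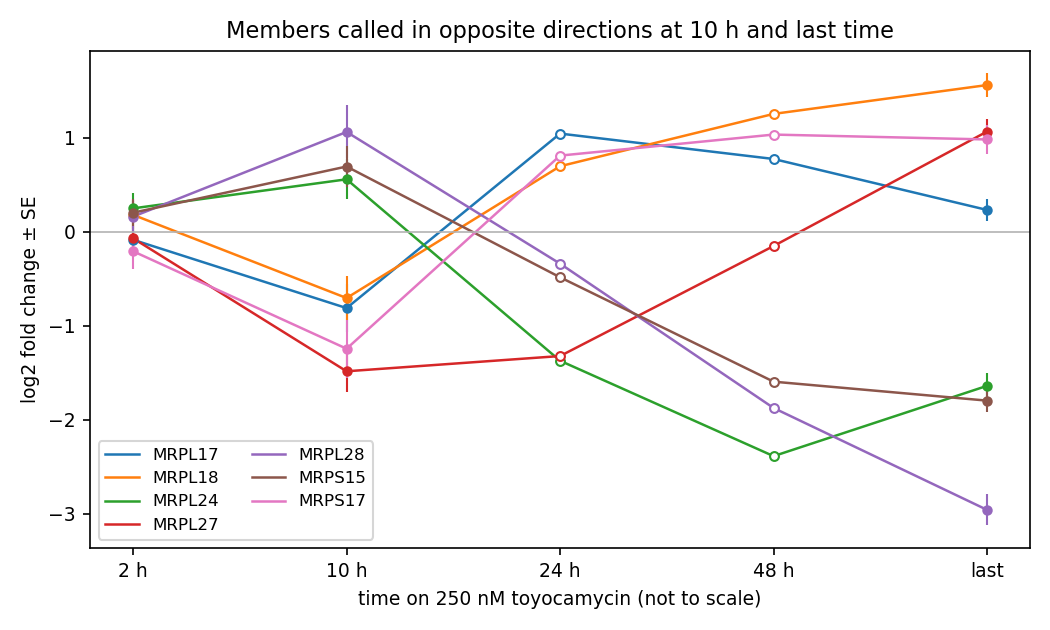
Fitted log2 fold change (vertical axis) against time (horizontal axis, not to scale) for the 7 members called in opposite directions at 10 h and at the last time point; bars are standard errors, and open points at 24 and 48 h rest on 1 library per arm. MRPL27 crosses from -1.49 to 1.07 and MRPL28 from 1.06 to -2.96.

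The comparison of the subunits gave small differences of medians inside wide spreads. MRPL and MRPS genes had median log2 fold changes of 0.13 and 0.09 at 2 h, -0.12 and -0.06 at 10 h, 0.39 and 0.08 at 24 h, 0.21 and -0.10 at 48 h, and 0.40 and 0.11 at the last time point. The large minus small difference was therefore 0.047, -0.065, 0.31, 0.31 and 0.29 at the successive times. Each toyocamycin library of the last time point, set against the mean of DMSO, gave a positive difference of 0.43, 0.31 and 0.50. By the place of the protein in the ribosome, with MRPS30 and MRPS18A as large and MRPS36 left out, the difference was 0.18 at 24 h and 0.21 at 48 h. Without the 39 members that overlap a gene on the other strand, the difference was negative at 10 h (-0.60), 24 h (-0.36), 48 h (-0.89) and the last time point (-0.33), so the sign of the subunit difference depended on which members were kept.

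In counts of members, 8 MRPL genes were called up and 7 down at 10 h, and 5 and 6 MRPS genes. After 24 h, 14 MRPL genes were at least 2-fold higher and 6 lower, against 9 and 4 MRPS genes, and after 48 h the counts were 12 and 8 against 11 and 10. At the last time point 28 of 48 MRPL genes were called up and 17 down, and 12 of 29 MRPS genes up and 12 down. Of the MRPL genes with a bacterial counterpart 20 of 30 were called up and 8 down, and of those without one 8 of 18 up and 9 down. For the MRPS genes the order was the other way, with 5 of 17 up and 8 down with a counterpart and 7 of 12 up and 4 down without. The medians were 0.49, -0.35, -0.33 and 0.55 in the same order. MRPS18A, which sits in the large subunit, was counted here with the MRPS genes that have a counterpart. Its paralog MRPS18B was counted with those that have none, so the division depends on how these paralogs are classed. None of these divisions was given a test, since genes of the same libraries are not replicates.

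The members together took 0.354 to 0.416% of the counts in DMSO libraries and 0.42 to 0.446% with toyocamycin at 2 h. With toyocamycin they took 0.268 and 0.270% at 10 h, 0.306% at 24 h, 0.380% at 48 h and 0.337 to 0.369% at the last time point. The ratio of MRPL to MRPS counts was 1.63 to 1.74 in DMSO, and with toyocamycin 1.73 and 1.76 at 2 h, 1.89 and 1.69 at 10 h, 1.48 at 24 h, 1.5 at 48 h and 1.84 to 1.91 at the last time point. MRPS30 alone took 0.0292% of the counts at 24 h with toyocamycin, against 0.0052 to 0.0075% in the DMSO libraries. Counted by the place of the protein, the ratio was 1.83 to 1.93 in DMSO, and with toyocamycin 1.90 and 1.94 at 2 h, 2.28 and 2.02 at 10 h, 2.29 at 24 h, 2.05 at 48 h and 2.15 to 2.25 at the last time point. At 24 and 48 h the toyocamycin library thus lay below DMSO by symbol and above DMSO by the place of the protein.

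**Figure D4:**
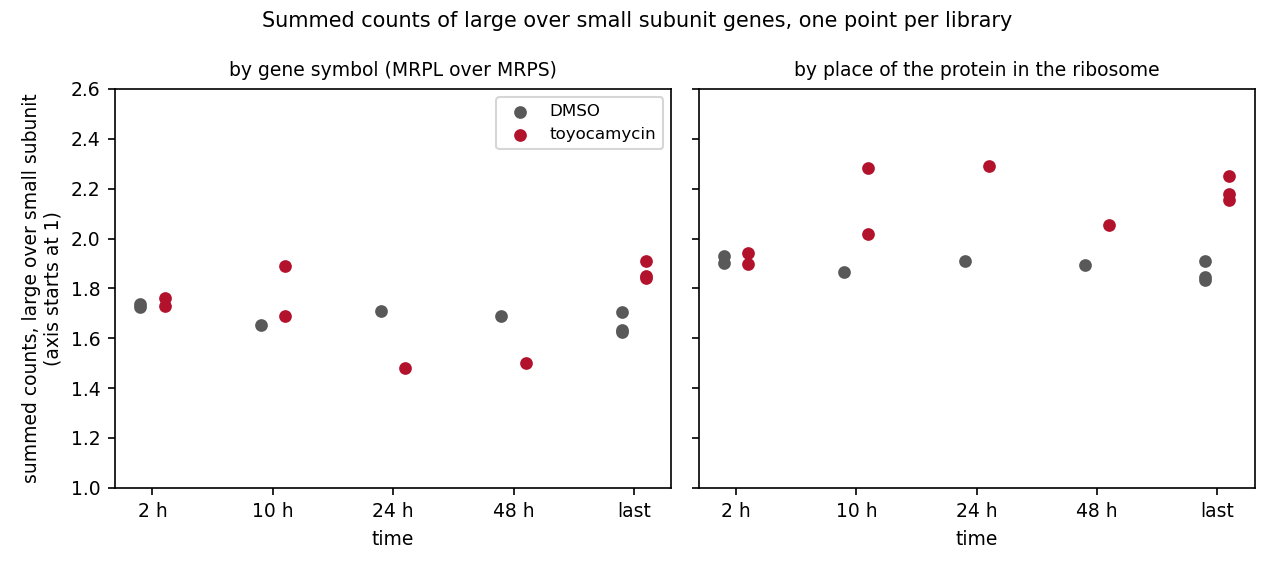
Ratio of summed counts of large to small subunit genes (vertical axis, from 1) by time (horizontal axis), 1 point per library, DMSO in grey and toyocamycin in red, by gene symbol on the left and by the place of the protein on the right. At 24 h the toyocamycin library lies below DMSO on the left (1.48) and above it on the right (2.29).

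Other gene families of protein synthesis and respiration are given beside the members. Of 77 cytosolic ribosomal protein genes, 74 were called up at 10 h and 75 at the last time point with none down, and all 77 were at least 2-fold higher at 24 h. Their median log2 fold change was 1.52 at the last time point with an SD of 1.0, against 0.36 and 1.52 for the members. Of 80 tested nuclear genes of oxidative phosphorylation, 61 were called up and 1 down at 10 h, and 25 up and 41 down at the last time point. Of 13 mitochondrially encoded genes, 8 were called up at 10 h and 11 at the last time point, with a median of 1.10 at the latter. These values are side by side on the same scaling, and a difference between the lists was not tested.

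Among 5 ribosomal proteins of mitochondria with other names, DAP3 was called up at the last time point (log2 fold change 0.37), and AURKAIP1 (-0.69), GADD45GIP1 (-1.49) and PTCD3 (-1.67) were called down. Of 28 genes for assembly and ribosomal RNA modification, 1 was called up and 15 down at 10 h, and 10 up and 10 down at the last time point. MRM1, which methylates the large ribosomal RNA, was at -2.01 at 10 h, and ERAL1, a chaperone of the small ribosomal RNA, was at -1.14 and then -2.58. Of 17 translation factors and related genes, 9 were called up and 7 down at the last time point, with the release factor MTRF1L at 1.98 and the elongation factor TUFM at -1.49. Of 10 regulators of nuclear genes for mitochondria, 2 were called down at 2 h, PPRC1 at -1.55 and NRF1 at -1.10. At the last time point 8 were up and 2 down, with MYC at 4.63, GABPB1 at 2.46, YY1 at 1.58, NRF1 at -0.46 and ESRRA at -2.81.

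Exact motifs of factors known for such promoters were counted in RefSeq promoters, from 250 bases before to 50 after the start, on both strands. A promoter was matched for 68 members, and 14948 protein-coding genes of the table served for comparison. CCGGAAG, the ETS family motif bound by GABPA, was in 41.2% of members and 14.5% of all promoters. AAGATGGCG (YY1) was in 19.1% and 2.86%, GCATGCGC (NRF1) in 8.82% and 4.22%, and TATAAA in 2.94% and 9.32%. None of the motifs contains another. At least 1 of the ETS, YY1 and NRF1 motifs was in 22 of 33 members called up at the last time point and in 13 of 27 called down. The YY1 motif was in 10 and 3 of these. The 10 include MRPL38, MRPL46 and MRPS24, which have under 100 counts in every DMSO library, and the 3 include no such member. The difference was not tested. MRPL20 and MRPS18A, which went in opposite directions, both hold the ETS motif in the sequences shown above. A match is a description of letters and not a site.

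In 16 pairs a member and a neighbour with a fitted value have starts within 300 bases on opposite strands. MRPS12 and SARS2, with starts 181 bases apart, are left out because SARS2 had no value in the fit. Both genes were called in the same direction at the last time point in 5 pairs and in opposite directions in 6. The same count over such pairs of all genes was not made, so these numbers are not particular to the members. MRPL43 was at -1.85 and its neighbour TWNK, the mitochondrial DNA helicase, at 3.94. MRPL36 was at 1.70 and NDUFS6, of respiratory complex I, at -0.33. MRPL27 and EME1 were both up, at 1.07 and 3.12. MRPL46 and MRPS11, both members, share a pair, with MRPL46 called up and MRPS11 in neither direction.

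Levels are compared between genes only as CPM per kilobase of the main transcript. In DMSO at 2 h MRPL41 was highest at 189 CPM per kilobase, then MRPL37 at 112, MRPS26 at 101, MRPL51 at 93.9 and MRPS34 at 90.7. The first 4 were called down at the last time point and MRPS34 up (0.64). The Spearman correlation across the 77 members between this level and the log2 fold change at the last time point was -0.331, and that with gene length was 0.059, as descriptions of genes that share libraries.

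The members with under 100 counts in every DMSO library were 6, namely MRPL2, MRPL38, MRPL46, MRPS18C, MRPS24 and MRPS28, and each shares over 50% of the exon bases of its main transcript with another gene. Among these, MRPS24 lies within the readthrough gene URGCP-MRPS24 for 90.9% of those bases. MRPS24 had 1 count in each DMSO library of the last time point and 24, 28 and 55 with toyocamycin, and no fold is given. It is among the members called up then and among those past the threshold upwards at 24 h, 48 h and the last time point. MRPL38 had 5, 5 and 0 counts in DMSO and 23, 19 and 13 with toyocamycin, and MRPS28 had 67, 26 and 41 in DMSO and 211, 167 and 157 with toyocamycin. Without the 9 members that share at least 50% of these bases, 35 of the others were called up and 27 down at the last time point, and the large minus small difference was 0.055 at 48 h.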

How the data were processed

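PolyA RNA of YB5 cells was sequenced from both ends. Per the labels, STAR 2.7.5a and the GRCh38 build were used, and the authors deposited raw counts per gene. The strand setting of the counting is not given in the sources used here, so reads of overlapping genes on opposite strands may not be told apart. A second deposited table holds the fold changes and p-values of their own edgeR comparisons and was not used. Of 19141 genes counted, 19080 matched a symbol of GENCODE 44, on the same build, from which coordinates were taken. In the count table, 1 column, whose name reads as a first DMSO replicate at 10 h, could be tied to no labelled sample and was left out. Groups, times and batches came from the labels, which call the experiments biological repeats without naming cultures.

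After filterByExpr and TMM scaling, each arm and time formed a group in edgeR's quasi-likelihood test in its older form (edgeR 4.0.16, R 4.3.3), with Benjamini-Hochberg adjustment over all genes and a threshold of 0.1 without a minimum fold. The 14 libraries without 10 h (14491 genes) gave 2, 24, 48 h and the last time point, and all 17 (16521 genes) gave 10 h. CPM values are TMM-scaled within these fits, unless given per library total. Times with 1 library per arm got no test. Fitted fold changes keep the default prior count of edgeR (0.125), and a prior count of 2 was used for the log2 CPM behind the differences per library and the pairing check. The members and lists were chosen with earlier results of these data known. Named genes were the 8 largest rises and falls past the threshold at an average of at least 3 log2 CPM, with arms that did not overlap, with MRPS12, the MRPS18 paralogs, MRPL3, MRPL11, MRPL12, MRPL58, MRPS30 and MRPS36 always named. At 2 h the replicate number is the batch in the labels, and libraries of the same number correlated in their deviations (r = 0.342), so a fit with the replicate block was also made. The scripts were tested on simulated data. Python 3.11.15, limma 3.58.1 and DESeq2 1.42.0 were used besides. Intervals of counting error are not given, because the sources used here name no molecular identifiers.

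The alternatives were other scalings (DESeq2's size factors, library size, mitochondrially encoded genes), other low-count filters, edgeR 4's test, the DESeq2 Wald test, a threshold of 0.05, a minimum fold of 1.2, other library sets, batch or the replicate as a term, each library left out, and other sets of members. Those without members that share exons, with libraries of a single time and no block, and of the last time point against 10 h were added after the data were seen.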

Additional observations from a re-analysis of the deposited data

Results flagged for a closer look

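The results listed here are members whose effect of toyocamycin differed between time points by a test of the difference in edgeR, with Benjamini-Hochberg adjusted p-values. For 30 members the effect was higher at the last time point than after 2 h, and for 28 it was lower, beside 38% and 38.1% of all genes tested. These counts are near the shares of all genes and are not particular to the members. Among the named members the log2 difference was 2.73 for MRPS33, 2.38 for MRPL10, 2.36 for MRPL44, 1.97 for MRPL20, 1.92 for MRPS23, 1.69 for MRPL55, 1.82 for MRPL36 and 1.26 for MRPS21. It was -3.12 for MRPL28, -2.23 for MRPS27, -2.40 for MRPS36, -2.13 for MRPL9, -2.24 for MRPL43, -2.0 for MRPS15, -1.73 for MRPS18A and -1.78 for MRPS26. All of these were named for the size of their change at the last time point. Their values are therefore a description, and the test is no support for them. Of the members named whatever their values, MRPS18B had 0.99, MRPL3 0.85, MRPS30 1.26, MRPL58 -1.09 and MRPS18C -1.13, the last with an adjusted p of 0.0819 and under 100 counts in each DMSO library.

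Between 10 h and the last time point, the difference was 1.01 for MRPL17, 2.23 for MRPL18, 2.52 for MRPL27 and 2.19 for MRPS17, and -2.23 for MRPL24, -4.05 for MRPL28 and -2.52 for MRPS15. These 7 were selected for opposite calls at the same 2 times, so the values are a description and their test is no support, and their 10 h effect rests on 1 DMSO library.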

How the results depend on the processing

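Of the 16 members with the largest rises and falls at the last time point, none changed sign under the alternatives run here. At the last time point the median of all genes shifted from 0.18 to 0.50 with DESeq2's size factors, to -0.42 with library size alone and to -0.89 on the mitochondrially encoded genes, and that of the members from 0.36 to 0.68, -0.24 and -0.77. DESeq2's size factors gave 11 members lower at 48 h. Library size alone gave 1 member down after 2 h, 4 up and 36 down after 10 h, 6 higher and 29 lower after 24 h, 10 higher and 28 lower after 48 h, and 24 up at the end. The mitochondrially encoded genes gave 0 up at 2 h, 0 up and 31 down at 10 h, 2 higher and 62 lower at 24 h, 1 higher and 52 lower at 48 h, 9 up at the last time point and 5 with a higher effect than at 2 h.

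The call up at 2 h became 2 with at least 10 counts in every library (which also gave 10 lower and a subunit difference of 0.19 at 48 h), 0 at an adjusted p under 0.05, 0 with a minimum fold change of 1.2, 0 in all 17 libraries, 0 in the libraries of 2 h with no block, and 3 by the DESeq2 Wald test, which gave 21 up at 10 h. A fold of 1.5 gave 17 members lower at 24 h. With the replicate block, 10 members were up and 1 down at 2 h, and the pairing by number does not hold at the last time point, where same-numbered libraries had r = -0.133, 0.0613 and -0.118 and the block gave 41 up and 28 down. Leaving out each replicate in turn gave 0 to 3 up and 0 to 1 down at 2 h, 12 to 20 up and 14 to 24 down at 10 h, and 38 to 40 up and 28 to 29 down at the last time point. The large minus small difference then ranged from -0.019 to 0.040 at 2 h, from -0.044 to 0.059 at 10 h and from 0.25 to 0.43 at the last time point. By the place of the protein it was 0.18 at 24 h and 0.21 at 48 h, without members overlapping the other strand -0.60, -0.36, -0.89 and -0.33 from 10 h to the last time point in turn, and without members sharing over 50% of their exons 0.055 at 48 h. The cause of these shifts was not tested.

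Some named members changed sign. With DESeq2's size factors MRPS12 (0.0050), MRPS18A (0.0097) and MRPS18B (0.029) did so at 2 h and MRPS18B (0.14) at 10 h, and with its Wald test MRPS12 (0.0047), MRPS18A (0.0098) and MRPS18B (0.028) at 2 h and MRPS18B (0.15) at 10 h. With library size alone these were MRPS30 at 2 h (-0.041), MRPS12 (-0.49), MRPL11 (-0.32) and MRPL12 (-0.20) at the last time point, and MRPS12 (-0.41), MRPL3 (-0.22) and MRPS36 (-0.41) at 10 h. On the mitochondrially encoded genes they were MRPS30 at 2 h (-0.073), MRPS12 (-0.99), MRPS18B (-0.082), MRPL11 (-0.78) and MRPL12 (-0.77) at the last time point, and MRPL28 (-0.019), MRPL48 (-0.058), MRPL11 (-0.25), MRPL54 (-0.29), MRPS34 (-0.34), MRPS21 (-0.41), MRPS12 (-0.92), MRPL12 (-0.42), MRPL3 (-0.89) and MRPS36 (-1.04) at 10 h. With at least 10 counts in every library MRPS18B was at 0.018 at 2 h and 0.065 at 10 h, and with batch as a term MRPS12 was at -0.41 at 10 h. Leaving out a replicate gave ranges across 0 at 2 h for MRPL11 (-0.0057 to 0.32), MRPL12 (-0.081 to 0.96), MRPS12 (-0.41 to 0.29), MRPS18A (-0.16 to 0.10), MRPS18B (-0.035 to 0.024), MRPS30 (-0.090 to 0.13) and MRPS36 (-0.12 to 0.57), and at 10 h for MRPS12 (-0.63 to 0.58), MRPS18B (-0.30 to 0.15), MRPS18C (-0.80 to 0.15) and MRPS36 (-0.10 to 0.21). None of these passed the threshold in the main test, other than MRPL11 and MRPS18B at the last time point and MRPL28, MRPL48, MRPL11, MRPL54, MRPS34 and MRPS21 at 10 h.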
